A study of Mus musculus with 24 samples.

Results

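Between postnatal day (P) 7 and P21 the list of open chromatin sites of Tle4 corticothalamic projection neurons (Tle4 CThPNs) shortened. The sites on both lists were mainly promoters, and those on the P21 list but not the P7 list lay mostly away from promoters. The sites compared were the ATAC-seq peaks of the Tle4 P7 and Tle4 P21 lists on chromosomes 1 to 19 and X, 15182 and 6538 peaks, or 21720 of the 292908 peaks in all 12 lists of the series. A P7 peak with no P21 peak overlapping it by at least 1 bp was called lost, a P21 peak with no P7 peak overlapping it was called gained, and the remaining P21 peaks were called kept. By this rule 10511 P7 peaks were lost, 1863 P21 peaks were gained and 4675 P21 peaks were kept, the last set lying on 4671 P7 peaks. These counts depend on list length, and with all lists cut to 6538 peaks there were 3019 lost and 3016 gained peaks. Lists of equal length give near equal lost and gained counts whatever the turnover, because nearly every overlap joins 1 peak of each list.

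The study profiled Tle4 CThPNs, which lie in layer 6, beside upper-layer neurons labelled through Cux2 that project across the corpus callosum (Cux2 CPNs), at embryonic stage E18.5 and at P1, P3, P7, P21 and P48. The Tle4 mice were C57BL/6 of the genotype Tle4-2A-CreERT2:Ai14, in which a tamoxifen-inducible Cre made from the Tle4 locus switches on the tdTomato reporter of Ai14. The Cux2 mice carried Cux2-CreERT2:Ai14 in its place. All dams received 4-hydroxytamoxifen during pregnancy, so both ages compared here had the same induction and differed in the time since it. Labelled cells were sorted from somatosensory and motor cortex, with 2 libraries per class and age, each made from a pool of 10 animals of both sexes. Each list was called on both libraries together, so a list is 1 unit and no value has a replicate error. The marked cells are those in which Cre acted before birth, and the lists do not show how complete the labelling was. In a sorted bulk sample, fewer cells with an open site and less opening of that site per cell cannot be told apart.

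ATAC-seq uses a transposase that cuts DNA where nucleosomes and other proteins leave it accessible, so peaks mark active promoters and distal elements such as enhancers and insulators. Corticothalamic neurons send layer 6 output to the thalamus. In the weeks after birth these cells complete axon growth, form and prune synapses and take on mature firing, while enhancers used for growth close and others open. AP-1, a dimer of Fos and Jun family proteins, binds enhancers in many cell types and is induced by neuronal activity. MEF2 factors act in synapse number and activity-dependent transcription, and CTCF marks insulators and loop anchors.

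The following stretches, from a few named peaks of each kind, show what the counted motifs look like and do not stand for their sets. The AP-1 motif was in 28.1% of gained distal windows of 200 bp and the MEF2 motif in 7.70% of lost ones. Each is 300 bases around the peak summit, read from the plus strand of the mouse NCBIM37 (mm9) assembly, 5′ to 3′. Capitals mark matches to the AP-1 motif TGANTCA or, in the lost peak, to the MEF2 motif.
Gained, A330021E22Rik intron, chr5:5648878-5649177, plus strand: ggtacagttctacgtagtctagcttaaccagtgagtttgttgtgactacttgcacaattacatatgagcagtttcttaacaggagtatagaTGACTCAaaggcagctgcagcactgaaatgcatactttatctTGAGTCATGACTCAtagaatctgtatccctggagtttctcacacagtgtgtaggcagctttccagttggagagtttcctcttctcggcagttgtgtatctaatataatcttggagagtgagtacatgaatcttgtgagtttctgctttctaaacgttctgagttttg
Gained, Tsga13 exon, chr6:30858043-30858342, plus strand: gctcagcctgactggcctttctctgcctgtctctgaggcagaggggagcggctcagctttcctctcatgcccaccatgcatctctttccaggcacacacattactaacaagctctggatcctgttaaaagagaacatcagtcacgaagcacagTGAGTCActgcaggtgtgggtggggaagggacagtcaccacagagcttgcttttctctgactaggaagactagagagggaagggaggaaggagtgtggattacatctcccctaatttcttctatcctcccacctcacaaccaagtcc
Gained, intergenic, nearest Sh3bp5, chr14:32261315-32261614, plus strand: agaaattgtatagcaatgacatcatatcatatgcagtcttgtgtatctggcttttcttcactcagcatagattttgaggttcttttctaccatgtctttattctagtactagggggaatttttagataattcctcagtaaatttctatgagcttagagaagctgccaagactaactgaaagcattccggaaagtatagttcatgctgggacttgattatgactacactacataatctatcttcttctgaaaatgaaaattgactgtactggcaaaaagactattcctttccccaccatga
Kept, Kcnab1 intron, chr3:64978582-64978881, plus strand: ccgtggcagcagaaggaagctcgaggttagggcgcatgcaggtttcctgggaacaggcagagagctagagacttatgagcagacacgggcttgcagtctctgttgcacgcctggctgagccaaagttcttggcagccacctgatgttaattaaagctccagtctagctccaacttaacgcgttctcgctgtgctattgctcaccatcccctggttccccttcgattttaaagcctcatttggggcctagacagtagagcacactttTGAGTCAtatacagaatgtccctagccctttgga
Lost, intergenic, nearest Cog6, chr3:52710756-52711055, plus strand: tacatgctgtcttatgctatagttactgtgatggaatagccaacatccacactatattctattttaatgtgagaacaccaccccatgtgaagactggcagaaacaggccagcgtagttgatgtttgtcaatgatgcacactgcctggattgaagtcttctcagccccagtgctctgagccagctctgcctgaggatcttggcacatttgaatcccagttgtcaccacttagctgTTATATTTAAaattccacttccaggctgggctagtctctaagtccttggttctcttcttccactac
The intron peak of A330021E22Rik held 3 AP-1 matches, a pair of them back to back, and the exon peak of Tsga13 held 1. The Sh3bp5 peak held no match to the AP-1, MEF2, CTCF, RFX or neuronal E-box motif in these 300 bases and was the only one of the 8 strongest distal gained peaks found in Tle4 lists alone. The kept Kcnab1 peak held 1 AP-1 match that lay outside the central 200 bases used for the motif counts, and the lost Cog6 peak held 1 MEF2 match. All 5 stretches lie outside annotated untranslated regions.

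The P7 and P21 lists differed in length, and this touches every count below. They covered 12.1 and 4.04 Mb, and their weakest peaks had a −log10 p of 19.5 and 21.1. The highest call number left in the peak names was 172387 at P7 and 207679 at P21, so the reproducibility filter kept at most 8.81% and 3.15% of calls. The study's methods state 1 approximate sequencing depth for all ATAC-seq libraries, and the reads behind each list are not recorded in it. The study's methods give a higher papain concentration for dissociating P21 and P48 cortex than younger cortex, while the labels give 1 concentration for all ages, so that age and dissociation cannot be told apart wherever early and late lists are compared. Of the 20 deep-layer identity genes, Tle4 and Tbr1, a transcription factor of layer 6 neurons, had a promoter peak at both ages. The Tle4 promoter, with a fold enrichment over background of 9.67 at P7 and 10.5 at P21, was also open in Cux2 lists (13.3 to 17.1), and the Tbr1 promoter was listed in all 6 Tle4 lists and in 2 of the Cux2 lists. No promoter of 15 oligodendrocyte genes had a peak in a Tle4 list at any age. Among 12 astrocyte genes, Aldh1l1 alone had a promoter peak at P21 (13.2) and none had one at P7. Of 13 microglia genes, Irf8 alone had one at P7 (12.5) and none at P21, and Adarb2 was the only 1 of 14 interneuron genes with one, at both ages. Vtn was the only one of 11 endothelial and pericyte genes with a promoter peak, and it had one in every list of both classes. The part of other cell types in the results was not tested.

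Lost peaks made up 69.2% of the P7 list and gained peaks 28.5% of the P21 list. In Cux2 CPNs over the same interval 14602 peaks, 49.3% of the P7 list, were lost and 22386, 59.8% of the P21 list, were gained. All 6 Cux2 lists, and no Tle4 list, were named as a second version, and whether both classes were processed in the same run is not stated, so class and processing cannot be told apart in any comparison of Tle4 with Cux2 values. These shares were not tested, since each age and class is 1 list. The near equal Tle4 counts at equal list length, given above, kept the 6538 peaks of highest −log10 p in each list. Their near equality follows from the equal lengths. Few calls lay near the edge of the rule. No kept P21 peak shared under 100 bp with its P7 partner and 4581 of 4675 shared at least 300 bp, while 7 gained peaks lay within 500 bp of a P7 peak and 1633 lay more than 10 kb from one.

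Strong P7 peaks were kept more often than weak ones. From the weakest to the strongest quartile of the P7 list by −log10 p, 8.78%, 15.8%, 27.9% and 70.6% of peaks were also in the P21 list. In the strongest quartile 83.2% of promoter peaks and 44.8% of distal peaks were kept. In the P21 list the gained share ran the other way, at 45.8%, 36.9%, 25.6% and 5.63%. Distal peaks of the strongest P21 quartile were gained in 23.4% of cases (82 of 350) and promoter peaks of that quartile in 0.778% (10 of 1285). Fold enrichment of kept peaks at the 2 ages had a Spearman rho of 0.684 across 4675 peaks, which are not independent replicates.

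**Figure D1:**
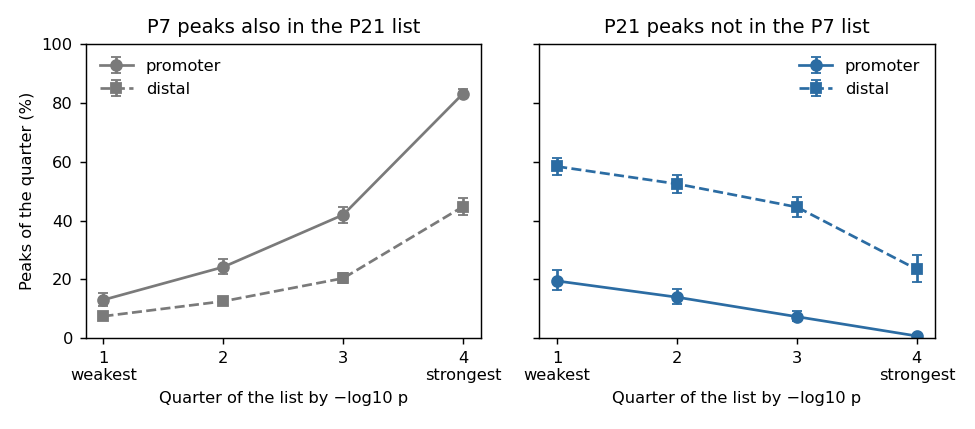
Share of P7 peaks that were kept (left) and of P21 peaks that were gained (right), in percent of each quartile of the list by −log10 p, for promoter peaks (circles) and distal peaks (squares), with 95% Wilson intervals for counting error only. Kept shares climb to 83.2% of promoter and 44.8% of distal peaks in the strongest P7 quartile, and gained shares decline to 0.778% and 23.4% in the strongest P21 quartile.

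Kept peaks were promoter peaks in 65.0% of cases (95% Wilson interval 63.6 to 66.3%), lost peaks in 26.1% (25.3 to 26.9%) and gained peaks in 14.3% (12.8 to 15.9%), a promoter being within 1 kb of an annotated transcription start site (TSS). With lists of equal length the shares were 73.0%, 32.0% and 24.3%, in the same order of sets. Gained peaks lay most often in introns (40.2%) and between genes (39.9%), with 5.64% in exons. Lost peaks lay between genes in 44.2% and in introns in 25.8% of cases, and kept peaks in 20.5% and 12.6%. Distal lost peaks were a median of 33801.5 bp from the nearest start, against 23721 bp for gained and 23397 bp for kept distal peaks. The intervals cover counting error only, and peaks of 1 list are not replicates. In 200 bp around the summit, 51.7% of kept, 20.7% of lost and 8.53% of gained peaks were CpG-rich, with over 50% GC and a CpG observed/expected ratio over 0.6. Among promoters alone 75.6% of kept, 71.2% of lost and 48.9% of gained ones were CpG-rich, so kept and lost promoters were close and gained ones lower.

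**Figure D2:**
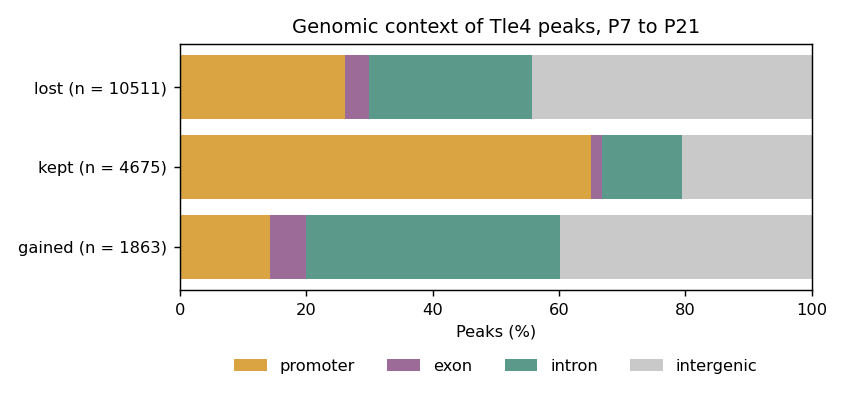
Genomic context of 10511 lost, 4675 kept and 1863 gained Tle4 peaks, in percent of each set, with promoter, exon, intron and intergenic peaks stacked. Promoters fill 65.0% of the kept bar, 26.1% of the lost bar and 14.3% of the gained bar (24.3% with lists of equal length), and introns fill 40.2% of the gained bar.

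The other 10 lists, which the rule did not use, showed when and in which class the same sites were open. Gained peaks overlapped 16.4%, 16.9% and 21.1% of the time with the Tle4 lists of E18.5, P1 and P3, and 71.2% of the time with Tle4 P48. In Cux2 CPNs the overlap was 25.8%, 20.7%, 26.6% and 32.0% from E18.5 to P7, then 78.0% at P21 and 82.0% at P48. Every late list thus held more of the gained peaks than any early list, and the stages did not overlap. The mean was 22.8% ± 5.66 (SD, n = 7) in early lists and 77.1% ± 5.43 (SD, n = 3) in late lists. Averaged over classes, the late minus early difference was 53.4 percentage points, with an exact two-sided permutation p of 0.0167, the smallest that 60 arrangements of stage within class allow, and 0.0333 after Benjamini-Hochberg adjustment over 4 tests. At equal list length this difference was 28.3 points, with an adjusted exact permutation p of 0.0222.

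Lost peaks overlapped the earlier Tle4 lists in 64.9%, 71.5% and 81.2% of cases from E18.5 to P3, and Tle4 P48 in 22.5%. Cux2 lists held 56.8%, 49.9%, 59.1% and 61.5% of them from E18.5 to P7, 45.8% at P21 and 55.0% at P48. The late minus early difference was −28.2 points (exact permutation p = 0.0333, adjusted 0.0444) and it rested on Tle4 P48, without which it was −6.43 points with an adjusted exact permutation p of 0.267. Leaving out any other single list gave −30.5 to −25.9 points, and the adjusted exact permutation p exceeded 0.05 for every list left out except Cux2 P1 (0.0333). Each of the other 10 lists held 84.6 to 95.3% of the kept peaks, with a late minus early difference of 1.88 points (exact permutation p = 0.5, adjusted 0.5), which at equal list length became −10.2 points (adjusted exact permutation p = 0.0333). The gained share minus the lost share of the same list, which sets a list's length against itself, was higher in late lists by 81.6 points (exact permutation p = 0.0167, adjusted 0.0333). Leaving out Tle4 P48 gave 60.1 points and an adjusted exact permutation p of 0.133, the smallest raw p being 0.0667 with that list gone. The Cux2 CPN lists share no library with the Tle4 lists.

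**Figure D3:**
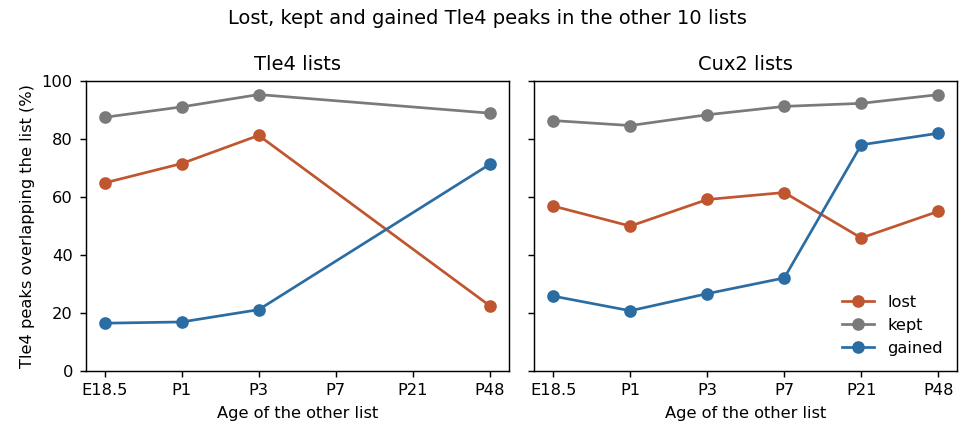
Percent of lost, kept and gained Tle4 peaks that overlap a peak in each of the other 10 lists, by the age of that list, for Tle4 lists (left) and Cux2 lists (right). The gained line stays at or below 32.0% through P7 and reaches 71.2 to 82.0% at later ages, while the kept line stays between 84.6 and 95.3%.

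Peak histories differed by position. Of the 1597 distal gained peaks, 12.0%, 11.6% and 15.3% were in Tle4 E18.5, P1 and P3, and 72.4% were in Tle4 P48. Of the 266 gained promoters, 43.2%, 48.5% and 56.0% were already in those early Tle4 lists and 63.5% were in Cux2 P7, so gained promoters had been listed before P7 more often than distal ones. In all, 616 gained peaks (33.1%) were in each of the 4 late lists and in no early list of either class. A further 125 were in Tle4 P48 and no Cux2 list, and 102 were in no list but Tle4 P21. Among lost peaks 9000 (85.6%) were in at least 1 earlier Tle4 list and 6100 (58.0%) in all 3 of them. By P48, 2363 lost peaks were listed again in Tle4 CThPNs, 6289 (59.8%) were in a late Cux2 list, and 3939 (37.5%) were in no late list at all. Lost promoters were in Cux2 P48 in 83.7% of cases and in Tle4 P48 in 34.9%.

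The strongest gained peaks were nearly all shared with mature Cux2 CPNs, and so were 85.0% of all gained peaks (in Cux2 P21 or P48). Kept peaks were in these lists in 96.5% of cases, and with 37426 and 45642 peaks they were the longest lists of the series. Of the 8 distal gained peaks with the highest fold enrichment, 6 were in all 4 late lists and in no early list. The strongest lay between genes at chr10:11043303-11043850, with 20.2 at Tle4 P21, 16.8 at Tle4 P48, and 19.4 and 22.004 at Cux2 P21 and P48. It lay 19352 bp from Epm2a, the gene of the glycogen phosphatase laforin. The Tsga13 exon peak at chr6:30858004-30858494 read 16.7 and 17.5 in the late Tle4 lists and 20.8 and 20.4 in the late Cux2 lists. In the A330021E22Rik intron at chr5:5648740-5649378 the values were 16.1 at both late Tle4 ages, 21.9 at Cux2 P21 and 19.5 at Cux2 P48. A peak in an intron of Slit3, which encodes a secreted axon guidance ligand, lay at chr11:35504046-35504622 with 16.5 and 12.4 in late Tle4 lists and 15.8 in both late Cux2 lists. These 4 sites showed the same order of stages in both classes, with no peak before P21.

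The intergenic peak 12002 bp from Sh3bp5, whose product binds the kinase JNK, differed from them. It lay at chr14:32261266-32261695, read 16.6 at Tle4 P21 and 14.7 at Tle4 P48, and was in no Cux2 list. The remaining distal peak of the 8, 24628 bp from Ly6c2, was in all lists but Tle4 P7, where its absence made it gained. Of the 5 strongest gained promoters, 3 were likewise in all 11 lists other than Tle4 P7. They lay at Cnga3, a cyclic nucleotide-gated channel gene, at Mospd2, and at the microRNA gene mmu-mir-689-2 inside Zc3h7a. The Cnga3 promoter read 12.3, 8.82 and 12.8 in the early Tle4 lists, 15.2 at P21 and 14.974 at P48. The other 2, at an unnamed transcript 8572 bp from Fbxo33 and at the immunoglobulin segment Igkv6-15, were late in both classes.

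Most of the strongest lost peaks were listed in other late lists. Of the 13 named by fold enrichment, 5 promoters and 8 distal peaks, 11 were in at least 1 other late list. Of all lost peaks, 37.5% were in no other late list. The promoter of Eif4ebp2, which encodes a brain-enriched repressor of translation initiation, had the highest fold enrichment of all lost peaks. It read 24.5, 24.7, 22.1 and 22.7 from Tle4 E18.5 to P7, was missing at P21 and read 8.72 at P48. In Cux2 CPNs it read 22.1, 25.5, 22.4 and 13.6 through P7, and 8.98 and 8.48 at P21 and P48, so both classes had it at less than its earlier values when late. The promoter of Exoc1, a subunit of the exocyst that tethers secretory vesicles, was 21.4 at Tle4 P7, in neither late Tle4 list, and 12.7 at both Cux2 ages.

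The lost peaks found in no late list at all were looked up after these values were seen. The strongest such promoters belonged to Micall2, which acts in membrane traffic and actin organisation, Sp100, a nuclear body protein gene, and Wbscr27. The Sp100 promoter read 20.974, 17.8, 19.005 and 18.1 in the 4 early Tle4 lists and 19.4, 20.9, 19.3 and 19.4 in the 4 early Cux2 lists. Wbscr27 had the same all-early pattern, with 18.1 at Tle4 P7 and 20.1 at Cux2 P7. Among distal peaks, a site 27029 bp from C1ql3, which encodes a secreted synaptic organiser, was open in early Tle4 lists alone, at 18.6, 21.963, 16.6 and 16.9. The Cog6 site, whose sequence is shown above, read 13.3, 12.8, 12.6 and 17.5 in the early Tle4 lists and was in 3 of the 4 early Cux2 lists.

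Kept peaks included the top of both lists. The Inpp5f promoter read 24.7 at P7 and 23.5 at P21, a rank of 99.9 in each list, and was in all 12 lists. A few kept peaks were picked for the largest difference in percentile rank between the lists, which differ in length, so their values are a description and no measured rise or fall. The promoter of Gpr56, an adhesion G protein-coupled receptor gene, read 7.82 at P7, 15.3 at P21 and 13.2 at P48. It was in no earlier list of either class and read 9.70 and 13.8 at Cux2 P21 and P48. The intron site of Kcnab1, a potassium channel beta subunit gene, had a different course. Its values in Tle4 CThPNs were 14.9, 10.2, 8.59, 6.28, 13.0 and 8.10 from E18.5 to P48, with the lowest at P7, and in Cux2 CPNs it was listed at P21 and P48 alone. The Klhl25 promoter had its lowest value of all 12 lists at Tle4 P7 (5.60) and read 13.8 at P21. At the other end, the promoter of Fam53a read 19.9 at P7 and 8.55 at P21, and that of Sertad1, a cell cycle and transcription cofactor gene, 16.1 and 8.05. Cux2 CPNs had 20.0 and 7.98 at the first and 14.9 and 8.41 at the second.

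Motif content separated the 3 sets among distal peaks. The AP-1 motif TGANTCA, which reads the same on both strands and shares no full match with the CRE TGACGTCA, was in 28.1% of gained distal windows of 200 bp (448 of 1597, Wilson interval 25.9 to 30.3%). It was in 12.6% of kept (11.1 to 14.3%) and 6.05% of lost distal windows (5.54 to 6.60%), and in 12.8% of all distal windows of the 12 lists. Gained promoters held it in 11.3% of cases, kept promoters in 3.00% and lost promoters in 2.52%, against 3.54% of all promoter windows. The difference was present at every peak strength. Within each quartile of the P21 list, gained distal peaks held the motif more often than kept ones, at 24.0% against 8.26% in the weakest quartile and 34.1% against 14.2% in the strongest. The share in gained peaks was 24.1% at equal list length, with 5.60% in lost peaks, a setting chosen after the data were seen.

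Across whole lists the AP-1 share of distal peaks was 6.66%, 7.23%, 6.88% and 7.004% at Tle4 E18.5, P1, P3 and P7, then 20.2% at P21 and 19.7% at P48. Cux2 lists gave 6.68%, 6.75%, 7.19% and 6.87% from E18.5 to P7, then 23.5% and 22.1%. Early and late lists did not overlap, and late lists of both classes were those for which the methods give the higher papain concentration. The part of dissociation in this was not tested. Gained distal peaks in all 3 other late lists and no early list held the motif in 39.1% (227 of 581). The share was 15.6% in those also in an earlier Tle4 list, 15.8% in those in no Cux2 list and 14.9% in those not in Cux2 P21, against 31.8% of those in Cux2 P21. The AP-1 motif was thus more frequent in gained peaks that Cux2 CPNs had at P21 than in those they lacked. The Wilson intervals (29.3 to 34.4% and 11.6 to 19.01%) cover counting error only, and the difference was not tested.

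MEF2 and CTCF motifs, searched on both strands, were least frequent in gained distal peaks. The MEF2 motif was in 7.70% of lost, 4.46% of kept and 2.76% of gained distal windows, against 5.75% of all distal windows. In Tle4 lists its share was 6.42 to 7.28% through P7 and 3.62% at both P21 and P48, while in Cux2 lists it was 5.82% at P21 and 4.71% at P48, within or just below the 4.83 to 6.53% of the early ages. Among distal lost peaks of the strongest P7 quartile 9.91% held it, against 5.22% of kept peaks of that quartile. The CTCF motif was in 4.60% of lost, 5.86% of kept and 1.69% of gained distal windows and in 4.35% of all. Lost peaks that no Cux2 list held had it in 0.275% (6 of 2178). The RFX motif GTTGCCATG was in 3.24% of kept distal windows, 0.811% of lost and 1.503% of gained ones, against 1.54% of all. The neuronal E-box CAGATGG was in 11.9%, 11.2% and 10.1% of lost, kept and gained distal windows, all below the 14.4% of all distal windows.

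Among promoters, the ETS motif CCGGAAGT was in 8.64% of lost, 4.87% of kept and 3.38% of gained windows, against 7.06% of all promoter windows. The EGR motif GTGGGCG was in 14.7%, 12.0% and 6.77%, against 11.9% of all. EGR and SP/KLF motifs are both rich in G and C, and overlapping matches were counted for each. The other families searched differed by under 5 percentage points between the sets at either position, apart from the SP/KLF motif GGGGCGGGG in promoters, at 17.5%, 18.8% and 13.2% against 16.5% of all. A match is a run of letters, not a bound site.

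**Figure D4:**
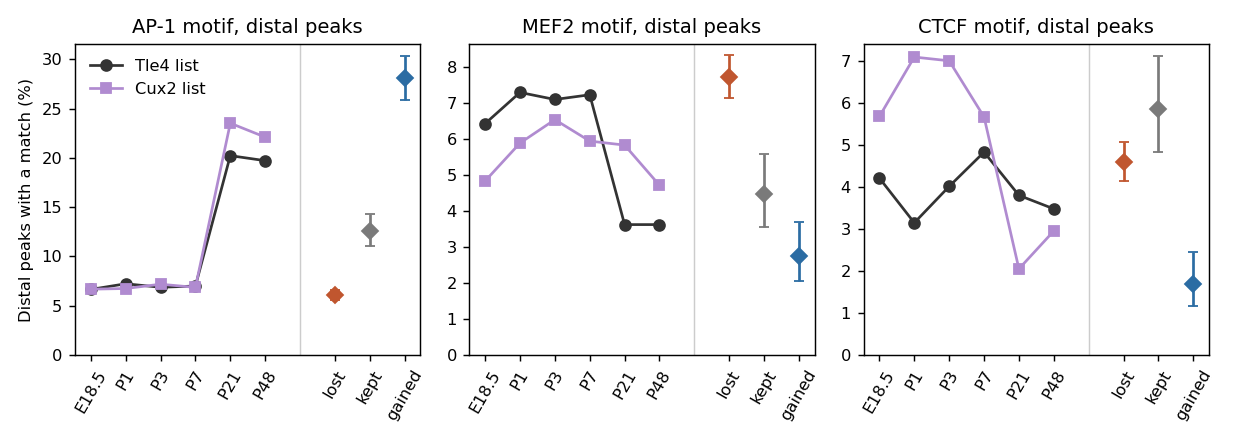
Percent of distal peaks whose 200 bp summit window holds an AP-1, MEF2 or CTCF motif, for the 6 Tle4 lists (black circles) and 6 Cux2 lists (violet squares) by age, and for lost, kept and gained Tle4 peaks (diamonds with 95% Wilson intervals for counting error). AP-1 shares lie at 6.66 to 7.23% in the 8 early lists and at 19.7 to 23.5% in the 4 late lists, and at 28.1% in gained peaks.

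Over all 22350 protein-coding genes, 15.2% had a promoter peak at both ages, 12.4% at P7 alone and 1.02% at P21 alone. With a peak assigned to the nearest protein-coding start within 100 kb, 5.9% of genes had at least 1 gained peak and 25.8% at least 1 lost peak. Nearness is a position, not a measured target. Genes with a promoter peak fell from 27.6% of all genes at Tle4 P7 to 16.2% at P21 and stood at 21.7% at P48, and the lists below are read against that. A list with more promoters listed at P7 had more that could be missing at P21, which raises its share at P7 alone. No list was tested, because each age is 1 list.

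Identity genes of both classes had few listed promoters. Besides Tle4 and Tbr1, 1 of the 20 deep-layer genes had a promoter peak at P7 alone, Nfia (6.44), and it was listed again at P48 (5.29). Gained peaks lay near 2 of the 20 (10.0%, against 5.9% of all genes), Sox5 and Lmo3. The intron peak (8.92) of Sox5, a transcription factor gene of deep-layer neurons, held an AP-1 match and was otherwise in Tle4 P48 alone. Lmo3 had 2 gained peaks. Of 15 callosal and upper-layer genes, Rorb had a promoter peak at both ages (7.11 and 8.25), and Pou3f1 (11.9) and Epha3 (7.51) had one at P7 alone.

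Genes of young neurons lost listed promoters, with 35.0% of the list at P7 alone, against 12.4% of all genes. Of 20 immature neuron genes, 8 had a promoter peak at P7 and 1 at P21, Sox11, a transcription factor of newborn neurons (7.63 and 7.86). The 7 with a peak at P7 alone included Sox4 (7.05), its close relative, the tubulin genes Tubb3 (8.34), Tubb2b (4.68) and Tubb2a (8.57), and Stmn2 (6.23), a regulator of microtubules in growing axons. At Tle4 P48 the list stood at 3 of 20, with Tubb3 (6.80) and Mllt11 (6.04) listed again. Cux2 CPNs had 13 of these 20 promoters at P7 and 10 at P21. Lost peaks lay near 9 of the 20 genes (45.0%, against 25.8% of all genes) and gained peaks near 2 (10.0%, against 5.9%).

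Of 30 axon guidance genes, 6 had a promoter peak at P7 and 2 at P21. Lost peaks lay near 16 (53.3%, against 25.8% of all genes). Promoters listed at P7 alone were 16.7% of this list, near the 12.4% of all genes. The receptor genes Epha4 (5.98), Epha5 (5.12) and Unc5b (9.82) and the ligand genes Efnb2 (6.33) and Sema3a (6.21) had a promoter peak at P7 alone. Epha7, an ephrin receptor gene, had one in all 12 lists, at 12.1 at P7 and 15.6 at P21. Robo1, the receptor for Slit ligands, was the 1 gene listed at P21 (9.39) and not at P7. Its promoter was also in Tle4 P3 (6.36) and Tle4 P48 (8.17), and it had a further gained peak in an intron that was in both late Cux2 lists. Gained intron peaks of Sema3a and Sema5a, both secreted or membrane semaphorin genes, were in Tle4 P48 too.

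Of 23 synaptic vesicle and release genes, 5 had a promoter peak at both ages and 5 at P7 alone, or 21.7% each, where all genes had 15.2% and 12.4%. In all, 43.5% of this list had a promoter peak at P7, against 27.6% of all genes, and 52.2% had a lost peak nearby, against 25.8%. The promoter of Rab3a, a vesicle GTPase gene, read 18.6 at P7, 11.3 at P21 and 7.51 at P48, and that of Syt1, the calcium sensor of fast release, read 10.961, 10.9 and 6.59. Vamp1, a vesicle fusion protein gene, read 14.4, 11.2 and 11.1, and Nrxn3, a presynaptic adhesion protein gene, read 14.6, 11.4 and 10.1. Syp (8.89), Syn2 (9.91), Cplx1 (9.84), Rims1 (6.03) and Pclo (9.24) had a peak at P7 alone. Cplx1, which encodes a clamp of vesicle fusion, was back at P48 with 7.16.

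Postsynaptic genes had no promoter peak at both ages. Of 30, 8 were listed at P7 alone, 2 at P21 alone and 20 at neither. These were 26.7%, 6.67% and 66.7%, against 12.4%, 1.02% and 71.4% of all genes. The P7 set held the scaffold genes Dlg4 (7.44), Dlg2 (9.58), Shank2 (11.9) and Homer1 (8.01), the glutamate receptor genes Grin1 (7.995), Gria1 (11.1) and Gria4 (6.05), and the GABA receptor gene Gabra2 (7.33). Lost peaks lay near 19 of the 30 genes (63.3%, against 25.8% of all genes) and gained peaks near 4 (13.3%, against 5.9%). The P21 set was Grin2a and Camk2a. The Grin2a promoter, belonging to the NMDA receptor subunit that becomes more prominent in mature cortex, read 8.995 at P21 and 7.73 at P48 and was in no earlier Tle4 list, though Cux2 lists held it at E18.5 (7.70), P3 (6.34) and P48 (6.17). A second gained peak, 68406 bp from its start, was in all 3 other late lists and in no early one. The Camk2a promoter, of the kinase gene central to synaptic plasticity, was in all lists but Tle4 P7, so its gain is a gap in that 1 list.

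Channel genes had few listed promoters. Of 25 genes, 4 had one at P7 and 1 at P21, Kcnab2 (13.2 and 10.8). Kcna1 (7.64) and Kcna4 (7.08), voltage-gated potassium channel genes, and Kcnq3 (7.79), which carries the M current, were listed at P7 alone. Promoters listed at P7 alone were 12.0% of this list, against 12.4% of all genes. Of the 25 genes, 11 had a lost peak nearby (44.0%, against 25.8% of all genes). A gained peak 90247 bp from Cacna1e, a calcium channel gene, held an AP-1 match and was in all 3 other late lists and in no early one. A gained intron peak of Kcnd3 was in no other list.

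Activity-regulated genes kept 7 of 28 promoters, lost 9 and gained 1. These were 25.0%, 32.1% and 3.57%, against 15.2%, 12.4% and 1.02% of all genes. At P7 16 of the 28 (57.1%) were listed, against 27.6% of all genes, so more of this list could be lost. Near 19 of the 28 (67.9%, against 25.8% of all genes) lay a lost peak. Kept ones included Fos (6.97 at P7 and 7.46 at P21), Jun (8.63 and 12.5), Egr3 (8.01 and 7.12), Egr4 (9.26 and 9.59) and Gadd45b (11.3 and 13.5). The Jun promoter read 12.8 at Cux2 P21. Promoters listed at P7 alone included Junb (6.06), Fosl2 (7.94), Egr2 (7.42), Arc (7.01), Nr4a1 (8.62) and Vgf (6.51). By P48 Tle4 CThPNs had 13 of the 28 listed, with Junb at 5.25 and Egr2 at 7.27. The single gain, Pcsk1, a prohormone convertase gene, had a promoter peak in all lists but Tle4 P7, so its gain is a gap in that 1 list. Gained peaks of the list held an AP-1 match in none of 4 cases, near Fosb, Nrn1, Pcsk1 and Btg2.

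Neurofilament and axon genes had gained peaks near 5 of 13, or 38.5%, against 5.9% of all genes. The share was 24.0% of chromatin regulators and 18.8% of nuclear receptor and MEF2 genes, none of them tested. Lost peaks lay near 5 of the 13 (38.5%, against 25.8% of all genes). Promoters were listed at both ages for 3 (23.1%, against 15.2%) and at P7 alone for 2 (15.4%, against 12.4%). The gained peak 48916 bp from Nefl, the light neurofilament gene, read 12.2, held an AP-1 match and was in all 3 other late lists and in no early list. Gained peaks also lay at or near Map2, Nfasc and Ank3, which encode a dendritic microtubule protein and a pair of axon initial segment and node proteins. A peak 42439 bp from Nefm lay at the start of another annotated transcript. The promoter of Map2 read 5.27 at P7 and 7.03 at P21.

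Of 16 nuclear receptor and MEF2 genes, 2 had a promoter peak at both ages, 2 at P7 alone and 1 at P21 alone. These were 12.5%, 12.5% and 6.25% of the list, against 15.2%, 12.4% and 1.02% of all genes. Among the 16 genes, Thrb, the thyroid hormone receptor beta gene, had 3 gained peaks and no lost one. They read 10.5, 10.2 and 10.2 at P21. The pair inside its introns was in Tle4 P48 and in no other list, and 1 of that pair held an AP-1 match, whereas the peak 8498 bp from its start was in 4 Cux2 lists. Nr3c2, the mineralocorticoid receptor gene, had a promoter peak at P21 (9.61) and not at P7, and was also in the 3 earlier Tle4 lists. Esrrg, an estrogen-related receptor gene, had its promoter listed at P7 (11.9) and P48 (7.80) and not at P21, with an intron peak that was in Tle4 P21 alone.

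Chromatin regulator genes kept 6 of 25 promoters and lost 4, or 24.0% and 16.0%, against 15.2% and 12.4% of all genes. Ezh2, a polycomb methyltransferase gene, read 11.3 at P7 and 10.2 at P21. Dnmt1 (10.6), Hdac9 (7.60), Hdac11 (5.95) and Smarca4 (10.9) were listed at P7 alone. Dnmt3a, the de novo DNA methyltransferase gene, had no promoter peak at either age and gained an intron peak 3289 bp from a start (9.64) that was in Tle4 P21 alone. Housekeeping promoters were kept for 12 of 25 genes, against 15.2% of all genes, and lost for 6 (24.0%, against 12.4%). No gained peak lay near any of the 25 genes. Of the 18 housekeeping genes with a promoter peak at P7, 6 had none at P21, against 2764 of 6165 among all genes. Ppia, Tbp, Eef1a1, Rpl13a, Psmb2 and Cltc were the 6, so absence from the P21 list also befell genes that all cells use. Gapdh read 10.4 and 9.08 and Rplp0 19.2 and 16.7.

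In total 50 gained peaks lay nearest 43 of the listed genes. Of the 50, 29 were in Tle4 P48 and 34 in Cux2 P21, against 71.2% and 78.0% of all gained peaks. Promoters were 9 of them, against 14.3% of all gained peaks. An AP-1 match was in 11, against 28.1% of all distal and 11.3% of all promoter gained peaks. Genes of other cell types with a single gained peak nearby included Aldh1l1, Sox9, P2ry12 and Slco1c1. The Aldh1l1 one was in Tle4 P21 alone, and the P2ry12 one lay inside Med12l as well and was in late lists and Cux2 P7.

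**Figure D5:**
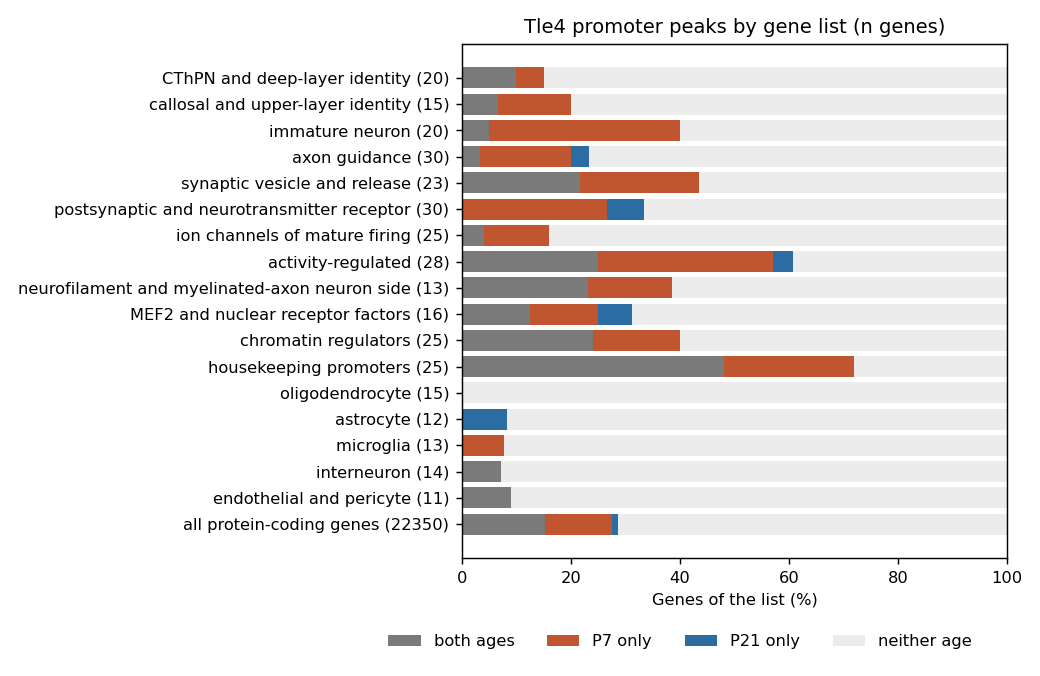
Percent of the genes of each list with a Tle4 promoter peak at both ages, at P7 alone, at P21 alone or at neither age, with the number of genes in brackets and all 22350 protein-coding genes at the bottom. P7-only promoters are 7 of 20 immature neuron genes and 8 of 30 postsynaptic genes, against 12.4% of all genes, and no oligodendrocyte gene has a promoter peak.

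A single gained peak was assigned to 1215 genes, 2 to 91 genes and 3 or more to 13 genes. Of the more numerous lost peaks, 7836 against 1436 gained peaks with a gene in range, 444 genes had 3 or more, and neither peak number nor gene length was adjusted for. Genes with 3 gained peaks included Thrb, the potassium channel genes Kcnf1 and Kcnh1, Mycbp2, a ubiquitin ligase gene in axon development, Phlpp1, an Akt phosphatase gene, and Samd4, an RNA-binding translational repressor gene. Dip2c, Col22a1, Macrod2 and Zfp706 were the rest of the 10 named. All 3 gained peaks of Kcnh1, Samd4 and Col22a1 lay in introns and were in Tle4 P48. For Kcnf1, 2 of 3 were in Tle4 P48 and all 3 in Cux2 P21.

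Lost peaks were most numerous at Etl4, which had 11. Next, Arhgap15, a Rac GTPase-activating protein gene, had 10, and the phosphodiesterase gene Pde4d, the scaffold gene Dlg2 and the extracellular matrix gene Tnr had 8 each. Of the 10 Arhgap15 peaks, none was in Tle4 P48 and 6 were in Cux2 P21, and of the 8 Dlg2 peaks 1 was in Tle4 P48 and 5 in Cux2 P21. Itpr1, the inositol trisphosphate receptor gene, and Slc24a2, a sodium, calcium and potassium exchanger gene, had 7 each, and Kif6, Mast4 and Odz4 had 6 each. None of the 6 peaks of Odz4, the teneurin 4 gene, was in Tle4 P48 or in Cux2 P21. Of these 10 genes, 7 had no gained peak.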

How the data were processed

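ATAC-seq peak lists of Tle4 CThPNs at P7 and P21 were compared, with the other 10 lists as reference, in groups taken from the labels. According to the study's methods and the labels' processing notes, the authors mapped reads to mm9 (Bowtie2), filtered duplicate reads (Picard) and ran MACS2 on each group of 2 replicates, retaining peaks at an irreproducible discovery rate of at most 0.1. A shift of read ends for the transposase is not given in the sources used here. Each deposited line holds a position, a score, the fold enrichment (a ratio to local background), the summit offset and other caller values, including the −log10 p used here, and these deposited values are each list's own. The TMM normalisation that the authors describe belongs to their differential analysis and is not in the lists. A list filtered in this way shortens with lower depth or replicate agreement as well as with less accessibility.

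Peaks on chromosomes 1 to 19 and X were used, since the deposited lists of 15189 and 6540 peaks held a few mitochondrial and Y peaks. Coordinates are 1-based, and start sites came from GENCODE vM1 on NCBIM37, the build of the files. The 1 bp overlap, 1 kb promoter, 100 kb gene window and 200 bp motif window were fixed settings. CpG-rich meant over 50% GC and an observed/expected ratio over 0.6. Motif families numbered 17 and gene lists 17. Regions were named by fold enrichment (5 promoter and 8 distal peaks each of the gained and lost sets, and the kept peaks strongest or most changed in rank), with none on chromosome 18, and genes by peak count or list membership. Intervals are 95% Wilson intervals. Stage labels of 10 lists were permuted exactly within classes in 4 tests. Steps were tested on simulated data. The members and lists were chosen with earlier results of these data known. Alternatives were list length, a common −log10 p, overlap and promoter definitions, pooled classes and each list left out. The lost peaks in no late list and the motif shares by list, by history and at equal length were added after values were seen. Python 3.11.15 with NumPy 2.4.6, SciPy 1.17.1 and pysam 0.24.0 was used. Results for a few members of the gene lists are not reported here.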

Additional observations from a re-analysis of the deposited data

Results flagged for a closer look

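The length of the list moved in opposite directions in the 2 classes between P7 and P21. The log2 ratio of P21 to P7 peak number was −1.22 in Tle4 CThPNs and 0.34 in Cux2 CPNs. The difference was not tested, since each class has 1 list per age.

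The Tle4 P7 list held 4 peaks on the Y chromosome, which entered no comparison, and the Tle4 P21 list held none. Each library was made from animals of both sexes, per the study's methods.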

How the results depend on the processing

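No paired analysis was possible because the deposited lists pool both replicates and carry no replicate number. Of 115 alternative values, 69 kept their direction and side of the threshold or stayed close to the reported value, 28 moved, 16 lost significance and 2 changed sign. With all lists cut to 6538 peaks, lost and gained peaks numbered 3019 and 3016, promoters were 32.0% of lost, 73.0% of kept and 24.3% of gained peaks, 50.9% of gained and 15.5% of lost peaks were in Tle4 P48, and the kept stage difference turned to −10.2 points (adjusted exact permutation p = 0.0333). Cutting only the P7 list, added after the data were seen, gave the same counts and promoter shares, with 74.1% and 32.6% in Tle4 P48. At a common −log10 p of 21.97 the promoter shares were 28.3%, 68.8% and 16.2%, the Tle4 P48 shares 65.5% and 18.4%, the kept stage difference −0.046 points and the lost one −29.1 (adjusted exact permutation p = 0.0667). Promoters within 500 bp were 24.9% of lost and 12.5% of gained peaks, those within 2 kb 28.5% and 16.9%, and those of protein-coding starts 24.6% of lost, 63.2% of kept and 12.5% of gained peaks.

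Leaving out each list in turn gave stage differences of 52.4 to 54.4 points for gained, −30.5 to −6.43 for lost, 0.928 to 6.14 for kept and 60.1 to 83.1 for gained minus lost. Without a late list the smallest possible exact permutation p was 0.05 or 0.0667, so no adjusted p under 0.05 was possible. The reads behind each list are not recorded in it, so a missing peak is one not listed, not a closed site.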
